A study of Mus musculus with 36 samples.

Results

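*Ubd*, which encodes the ubiquitin-like protein FAT10, was followed as 1 of the 16593 mouse genes named by the probes of a bead array. It was taken by its gene symbol, which 1 of the 25697 probes carries (ILMN_2426853), and it was selected on its measured array levels, since earlier results of these arrays had shown large differences between groups in it. Its own levels are therefore given as a description, with no test. RNA came from liver of FVB/n mice, in 36 samples of 10 groups, each read on 1 array. Tumours (Tu) and non-tumoral liver (NonTu) came from livers with the drivers AKT and CAT, and further tumours from livers with AKT and NRAS. The abbreviation CAT is not explained in the labels and is taken to mean beta-catenin.

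AKT-NRAS tumours were sampled with the bile duct toxicant DDC (Tu_AKTNRAS_DDC, 4 arrays) and without treatment (Tu_AKTNRAS, 4 arrays). AKT-CAT tumours were sampled with the hepatocyte toxicant CCl4 (Tu_AKTCAT_CCl4, 4 arrays), with DDC (Tu_AKTCAT_DDC, 4 arrays) and without treatment (Tu_AKTCAT, 4 arrays). Non-tumoral AKT-CAT liver was sampled with CCl4 (NonTu_AKTCAT_CCl4, 4 arrays), with DDC (NonTu_AKTCAT_DDC, 3 arrays) and without treatment (NonTu_AKTCAT, 3 arrays). Liver whose labels name no tumour driver was sampled after DDC (DDC_only, 3 arrays) and after PBS (PBS_only, 3 arrays). The labels used here give no age, dose, duration or way of introducing the drivers. Nothing in them tells whether each sample came from an animal of its own, so errors and p-values cover only the spread between samples, which may be technical.

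FAT10 is a small protein built of tandem ubiquitin-like domains. It is joined to other proteins by the activating enzyme UBA6 and the conjugating enzyme UBE2Z, and it carries them to the proteasome. Its gene is known to be switched on by interferon gamma and by TNF, which acts through NF-kB. In liver it is known for high levels in hepatocellular carcinoma and in mice fed DDC, whose hepatocytes form keratin aggregates called Mallory-Denk bodies.

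*Ubd* (gene ID 24108) lies on chromosome 17 at 37193892 to 37196101 of GRCm38.p6, on the + strand, in RefSeq's annotation. The position of the probe within the transcript was not analysed here. The 250 bases before its annotated start (RefSeq, GRCm38.p6, chr17:37193642-37193891, + strand) are shown because the inducers of the gene act through factors with known DNA motifs, and capitals mark the match to the NF-kB consensus.
Ubd upstream window: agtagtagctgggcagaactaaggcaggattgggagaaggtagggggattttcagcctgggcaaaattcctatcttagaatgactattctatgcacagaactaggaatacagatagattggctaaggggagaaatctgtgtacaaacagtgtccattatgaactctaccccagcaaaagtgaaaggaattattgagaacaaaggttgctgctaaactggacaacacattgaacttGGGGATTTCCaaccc
The match lies 15 to 6 bases before the start. Searched on both strands, the NF-kB consensus had a match in 7.25% of all 32851 windows of this length. The interferon gamma element GAS (TTCNNNGAA) had no match in the *Ubd* window and matched in 7.02% of all windows. The core of the interferon response element, GAAA repeated after any 2 bases, had none either and matched in 2.98% of windows. A match is a description of letters, not of a bound site.

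Between 41.6% and 51.0% of probes were detected per array (detection p under 0.05), and the mean correlation of an array with its own group lay between 0.964 and 0.987. Slides were inferred from the number that opens each array's detection p column name, which the headers do not call a slide. By these numbers the arrays lay on 5 slides. The median deposited signal varied most within Tu_AKTNRAS, at 11.7 to 46.2 intensity units, against 9.07 to 13.3 in Tu_AKTCAT, and it was at most 15.4 in Tu_AKTNRAS_DDC. DDC_only and PBS_only shared slide 1, both AKT-NRAS groups slide 4 and both CCl4 groups slide 5, and the other groups lay on slides 1 to 3. Of 8 hepatocyte markers, 6 (*Alb*, *Ttr*, *Apoa1*, *Apoc3*, *Fga* and *Serpinc1*) were detected on 36 of 36 arrays. In whole tissue, fewer cells of a type and less RNA per cell cannot be told apart. Precision is limited by having 3 or 4 arrays in a group.

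*Ubd* separated the arrays into a high and a low set. Levels are log2 normalized intensities of its 1 probe. The 26 arrays of 7 groups lay at 9.05 or above, and the 10 arrays of NonTu_AKTCAT_CCl4, NonTu_AKTCAT and PBS_only lay at 7.61 or below. The gap between them was 1.44 on the log2 scale, or 2.71-fold. Every tumour group and every group given DDC was in the high set.

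Among AKT-NRAS tumours, *Ubd* read 9.43, 9.05, 9.85 and 10.39 in Tu_AKTNRAS_DDC (9.68 ± 0.57, SD, n = 4), against 10.52, 10.34, 11.32 and 11.87 in Tu_AKTNRAS (11.01 ± 0.72, SD, n = 4). These were the lowest means of the 5 tumour groups, and both groups overlapped, since the highest array with DDC exceeded the lowest without it. AKT-CAT tumours read 13.24, 13.67, 13.52 and 13.41 in Tu_AKTCAT_CCl4 (13.46 ± 0.18, SD, n = 4), the highest group mean of the 10. With DDC, Tu_AKTCAT_DDC read 12.86, 12.89, 12.45 and 12.25 (12.61 ± 0.31, SD, n = 4), and untreated Tu_AKTCAT tumours read 11.75, 11.89, 12.02 and 12.60 (12.06 ± 0.37, SD, n = 4). All AKT-CAT tumour arrays were at 11.75 or above, whichever the treatment.

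Non-tumoral AKT-CAT liver differed between treatments. It read 6.55, 7.11, 7.56 and 7.61 in NonTu_AKTCAT_CCl4 (7.21 ± 0.49, SD, n = 4) and 12.85, 11.60 and 12.60 in NonTu_AKTCAT_DDC (12.35 ± 0.66, SD, n = 3). Without treatment, NonTu_AKTCAT read 4.81, 5.77 and 7.59 (6.06 ± 1.41, SD, n = 3). The DDC arrays overlapped the AKT-CAT tumours without treatment and with DDC, and lay below those with CCl4. The CCl4 arrays overlapped the untreated non-tumoral ones. The untreated group had the widest spread of the 10, and its lowest array was not detected.

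In liver with no driver named, *Ubd* read 12.95, 12.37 and 13.67 in DDC_only (12.99 ± 0.65, SD, n = 3), against 4.66, 4.59 and 6.11 in PBS_only (5.12 ± 0.86, SD, n = 3). Only the highest PBS_only array was detected, so the PBS_only mean is close to the array's background. On the deposited scale before normalization, *Ubd* lay between 5633 and 10528 intensity units in DDC_only, against -0.24 to 30.2 in PBS_only. In order of their means, Tu_AKTCAT_CCl4 came first, followed by DDC_only and then Tu_AKTCAT_DDC. Next were NonTu_AKTCAT_DDC and, below it, Tu_AKTCAT, followed by Tu_AKTNRAS and then by Tu_AKTNRAS_DDC. The lowest were NonTu_AKTCAT_CCl4, then NonTu_AKTCAT and last PBS_only. Each group's arrays overlapped those of the next in this order, except between Tu_AKTNRAS_DDC and NonTu_AKTCAT_CCl4.

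**Figure D1:**
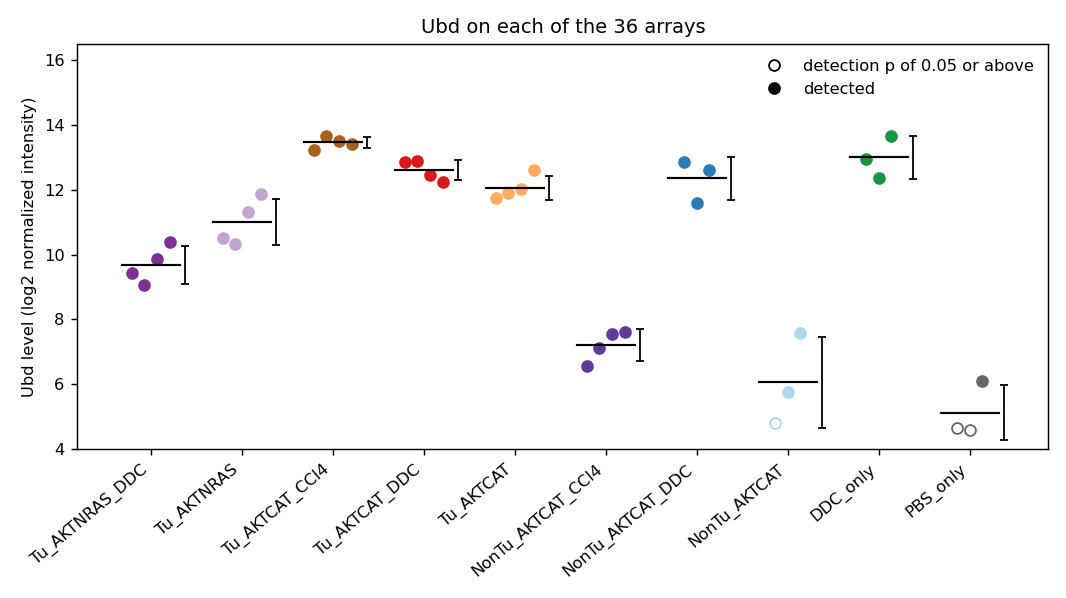
*Ubd* level (log2 normalized intensity, vertical axis) on each array, by group. Points are arrays, open where not detected, lines are group means and bars 1 SD. The 3 low groups reach at most 7.61 and the 7 others start at 9.05.

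The largest of the 12 differences was that of DDC without a named driver. *Ubd* was 7.87 ± 0.50 higher (log2, SE of the fit) in DDC_only than in PBS_only. Since it was detected on only 1 of 3 PBS_only arrays, the size depends on how background is treated, and with an offset of 50 it was 6.86. In non-tumoral AKT-CAT liver, DDC went with a difference of 6.29 ± 0.50, or 78.1-fold, in NonTu_AKTCAT_DDC against NonTu_AKTCAT, where *Ubd* was detected on 2 of 3 arrays. These groups shared no slide and were linked only through Tu_AKTCAT, and with slide as a block the difference was 7.0. In AKT-CAT tumours the DDC difference was 0.55 ± 0.43 and the arrays overlapped, with 0.46 within slide 2. In AKT-NRAS tumours it was -1.33 ± 0.43, again with overlapping arrays, all on slide 4.

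Tumours stood above non-tumoral liver except under DDC. *Ubd* was 6.0 ± 0.47 higher (64.2-fold) in Tu_AKTCAT than in NonTu_AKTCAT, again set against 2 detected arrays of 3. On slide 3, which held 1 of these tumours and all 3 non-tumoral samples, the difference was 6.54. Under CCl4 it was 6.25 ± 0.43 (76.3-fold) in Tu_AKTCAT_CCl4 against NonTu_AKTCAT_CCl4, all on slide 5. Under DDC, Tu_AKTCAT_DDC and NonTu_AKTCAT_DDC differed by 0.26 ± 0.47 and overlapped, with 0.0 within slide 2.

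*Ubd* was 1.40 ± 0.43 higher (2.63-fold) in Tu_AKTCAT_CCl4 than in Tu_AKTCAT, with no overlap, and 1.15 ± 0.47 higher in NonTu_AKTCAT_CCl4 than in NonTu_AKTCAT, with overlap. Neither pair shared a slide, so slide and CCl4 cannot be told apart. The same holds for the AKT-NRAS against the AKT-CAT tumours, where *Ubd* differed by -1.05 ± 0.43 without treatment, with overlap, and by -2.93 ± 0.43 with DDC, without overlap (7.62-fold higher in Tu_AKTCAT_DDC). The first of these rests on the normalization: deposited *Ubd* intensities were 977 to 7199 in Tu_AKTNRAS, against 2783 to 4150 in Tu_AKTCAT, and the difference was -0.66 with scaling on the median of all probes and -1.36 with the kept probes. Deposited intensities with DDC were 499 to 1319 in Tu_AKTNRAS_DDC, against 5790 to 7693 in Tu_AKTCAT_DDC. Untreated NonTu_AKTCAT exceeded PBS_only by 0.94 ± 0.50 with overlapping arrays. Comparisons that share a group, such as both that use NonTu_AKTCAT, are not independent.

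**Figure D2:**
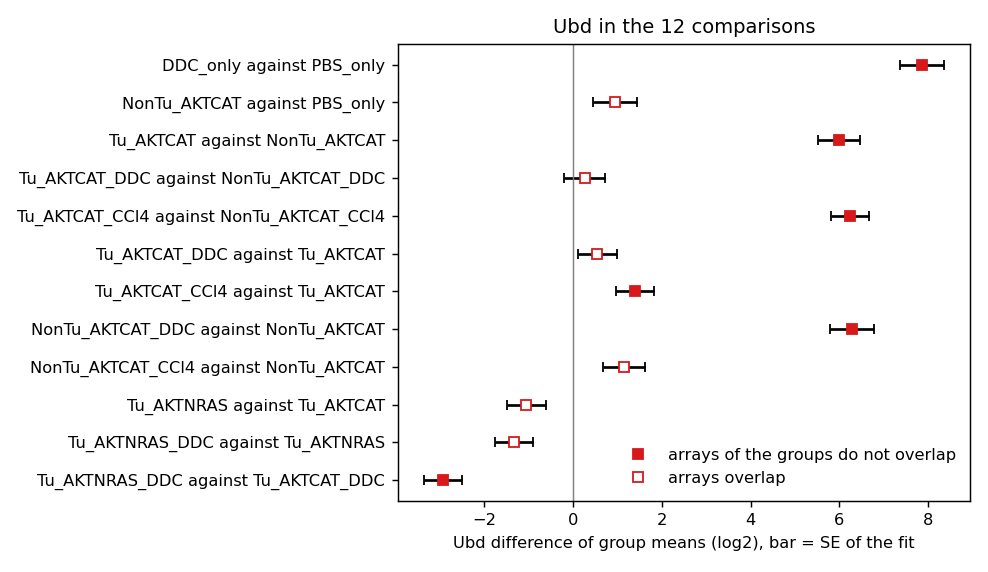
Difference of *Ubd* group means (log2, horizontal axis) in the 12 comparisons, with the SE of the fit as bars. Filled squares mark the 6 comparisons without overlap of the arrays, from 7.87 for DDC_only against PBS_only to -2.93 for Tu_AKTNRAS_DDC against Tu_AKTCAT_DDC.

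Genes of the FAT10 pathway were tested with limma, and adjusted p-values are Benjamini-Hochberg values over all 10765 genes, called under 0.05. Of the 6 genes that attach FAT10 or handle it afterwards, 4 were tested. *Uba6*, the activating enzyme, was detected on 1 array, and *Nub1*, which speeds the breakdown of FAT10, had no probe. In DDC_only against PBS_only, where 22.7% of all genes were called, 11.1% higher and 11.6% lower, 2 of these 4 rose, and the median of the 4 was 0.58, beside -0.04 over all genes. *Sqstm1*, the autophagy receptor p62, read 12.60, 12.20 and 12.38 in DDC_only, against 11.39, 11.19 and 11.28 in PBS_only. The groups did not overlap and the rise was 1.11 ± 0.25 (limma adjusted p = 0.00178), with adjusted p = 0.0645 when arrays were scaled on the median of the kept probes. *Ube2z*, the conjugating enzyme, rose by 1.05 ± 0.37 (limma adjusted p = 0.038), a call that 6 of 13 alternatives ended (highest adjusted p = 0.137), among them the fits without DDC_only replicate 1 or 2 and without PBS_only replicate 2 or 3. *Psmd4*, the proteasome subunit that binds FAT10, and *Hdac6*, a deacetylase that binds it, differed by 0.12 and -0.50 and were not called.

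Where tumours were compared, the same genes gave these values. In Tu_AKTCAT against NonTu_AKTCAT (11.2% of genes called, 5.93% higher and 5.27% lower), 0 of the 4 were called, with *Sqstm1* at 0.69 ± 0.24 (limma adjusted p = 0.0574). In Tu_AKTCAT_CCl4 against NonTu_AKTCAT_CCl4 (15.2% called, 7.84% higher and 7.40% lower), *Sqstm1* rose by 0.82 ± 0.22 (limma adjusted p = 0.00898) and the other 3 were not called. *Sqstm1* fell by 1.32 in Tu_AKTNRAS_DDC against Tu_AKTCAT_DDC (39.3% called, 21.0% higher and 18.3% lower, limma adjusted p = 1.22e-05), while *Hdac6* rose by 1.12 (adjusted p = 0.00461). In Tu_AKTNRAS against Tu_AKTCAT (37.4% called, 20.6% higher and 16.9% lower), *Sqstm1* fell by 0.75 and *Psmd4* by 0.62 (limma adjusted p = 0.00749 and 0.00491), and both calls were lost when arrays were scaled on the median of all probes (adjusted p = 0.324 and 0.0597). In Tu_AKTCAT_CCl4 against Tu_AKTCAT (8.29% called, 5.11% higher and 3.18% lower), *Psmd4* fell by 0.57 (limma adjusted p = 0.0373). That call was ended by 6 of 14 alternatives (highest adjusted p = 0.155).

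The immunoproteasome subunits *Psmb8*, *Psmb9* and *Psmb10* and the PA28 activator subunits *Psme1* and *Psme2* are, like *Ubd*, interferon gamma targets, and all 5 were tested. In DDC_only against PBS_only none of them rose. *Psmb9* read 10.26, 9.90 and 10.14 in DDC_only, against 10.84, 10.17 and 11.53 in PBS_only, and fell by 0.75 (limma adjusted p = 0.0315). This call was lost with scaling on the median of all probes and without DDC_only replicate 2 or 3 or PBS_only replicate 1 or 3 (highest adjusted p = 0.305). The other 4 differed by -0.17 to 0.14 and were not called. In Tu_AKTCAT against NonTu_AKTCAT, where *Ubd* was 64.2-fold higher, 0 of the 5 were called and their median was 0.23.

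In Tu_AKTCAT_CCl4 against NonTu_AKTCAT_CCl4, 2 of the 5 rose and the median of the 5 was 0.51, beside -0.02 over all genes. *Psmb9* read 10.91, 10.73, 11 and 10.65 in Tu_AKTCAT_CCl4, against 10.18, 9.86, 10.14 and 9.45 in NonTu_AKTCAT_CCl4, and rose by 0.92 ± 0.22 (limma adjusted p = 0.00375). *Psme1* rose by 0.84 ± 0.16 (adjusted p = 0.00025), and neither gene's groups overlapped. *Psme1* also rose by 0.79 in Tu_AKTCAT_DDC against Tu_AKTCAT (13.3% of genes called, 7.40% higher and 5.86% lower, limma adjusted p = 0.00104) and by 0.90 in NonTu_AKTCAT_DDC against NonTu_AKTCAT (18.1% called, 10.3% higher and 7.78% lower, adjusted p = 0.000519, but 0.33 with slide as a block). In the last of these comparisons *Psmb8* fell by 0.99 (limma adjusted p = 0.0441), a call that 8 of 13 alternatives ended, each of the 3 fits without 1 NonTu_AKTCAT_DDC array and those without NonTu_AKTCAT replicate 2 or 3 among them. With slide as a block its difference was 0.44, in the opposite direction (adjusted p = 0.812). With CCl4, in Tu_AKTCAT_CCl4 against Tu_AKTCAT (8.29% called, 5.11% higher and 3.18% lower), *Psme1* was called at 0.50 (adjusted p = 0.042), which 8 of 14 alternatives ended, each of the 4 fits without 1 Tu_AKTCAT_CCl4 array and those without Tu_AKTCAT replicate 2 or 4 among them (highest adjusted p = 0.199). In NonTu_AKTCAT_CCl4 against NonTu_AKTCAT (19.0% called, 10.7% higher and 8.21% lower), 0 of the 5 were called. *Psmb10* fell by 0.77 and *Psme1* fell by 0.96 in Tu_AKTNRAS_DDC against Tu_AKTCAT_DDC (limma adjusted p = 0.00147 and 8.42e-06). Without DDC, in Tu_AKTNRAS against Tu_AKTCAT, *Psmb10* fell by 0.88 (limma adjusted p = 0.000407) and the other 4 were not called. That call was lost when arrays were scaled on the median of all probes (adjusted p = 0.0664).

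Of 14 genes of the NF-kB response, 12 were tested. In DDC_only against PBS_only, 7 rose and none fell, with a list median of 1.27. *Relb*, a subunit of NF-kB, read 7.57, 7.51 and 6.96 in DDC_only, against 4.56, 4.57 and 5.0 in PBS_only, where it was detected on no array. It was at least 3.77-fold higher (limma adjusted p = 2.94e-08). *Tnfaip3*, an inhibitor of the pathway that it induces, was at least 4.03-fold higher (adjusted p = 3.01e-06), and *Ccl2*, which draws monocytes, was at least 4.33-fold higher (adjusted p = 2.27e-07). *Icam1*, an adhesion molecule, rose by 1.80 ± 0.32 (adjusted p = 9.02e-05).

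*Relb* and *Tnfaip3* were also called in tumours against non-tumoral liver without treatment and with CCl4, but with DDC 0 of the 12 NF-kB genes were. In Tu_AKTCAT against NonTu_AKTCAT 3 of the 12 NF-kB genes rose, with a list median of 0.03. *Relb* rose by 1.23 ± 0.26 there (limma adjusted p = 0.00196), with 0.0974 when arrays were scaled on the median of the kept probes, and *Tnfaip3* was at least 2.44-fold higher (adjusted p = 0.000121). In Tu_AKTCAT_CCl4 against NonTu_AKTCAT_CCl4, 4 rose and 1 fell, and *Relb* rose by 1.5 ± 0.24 (limma adjusted p = 5e-05). In NonTu_AKTCAT_DDC against NonTu_AKTCAT, 3 rose and 1 fell, with *Relb* up by 1.91 ± 0.28 (limma adjusted p = 9.49e-06). NF-kB genes were also called where *Ubd* overlapped. In Tu_AKTCAT_DDC against Tu_AKTCAT (13.3% of genes called) and in NonTu_AKTCAT_CCl4 against NonTu_AKTCAT (19.0%), 3 rose and 0 fell. In NonTu_AKTCAT against PBS_only (15.1%), 2 rose and 1 fell. With slide as a block, 0 were called in the first and the last of these. With either median scaling, 0 were called in the second.

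Between tumour models, the differences of *Ubd* and of most of these genes had opposite signs. In Tu_AKTNRAS against Tu_AKTCAT, where the *Ubd* difference was -1.05, 10 of the 12 NF-kB genes rose and 1 fell, with a list median of 1.13. The neutrophil attractant *Cxcl1* rose by 3.22 ± 0.42 (limma adjusted p = 4.06e-07) and the adhesion molecule *Vcam1* by 2.78 ± 0.29 (adjusted p = 7.27e-09). Markers of other cells differed as well: 4 of 8 stellate cell and fibroblast markers rose (list median 0.88), with sums of 7071 to 10958 in Tu_AKTNRAS, against 5111 to 7093 in Tu_AKTCAT. Of 6 tested neutrophil markers 2 rose, with sums of 994 to 2044 in Tu_AKTNRAS, against 175 to 865 in Tu_AKTCAT. Of 7 endothelial markers 3 fell, with sums of 899 to 4838 in Tu_AKTNRAS, against 3302 to 8602 in Tu_AKTCAT, and 2 of 7 tested macrophage and Kupffer cell markers rose while 2 fell. Their part in the result was not tested. In Tu_AKTNRAS_DDC against Tu_AKTCAT_DDC, where the *Ubd* difference was -2.93, 6 of the 12 NF-kB genes rose and 1 fell, with a list median of 0.54. *Relb* averaged 7.82 ± 0.05 (SD, n = 4) in Tu_AKTNRAS_DDC, against 7.43 ± 0.58 (SD, n = 4) in Tu_AKTCAT_DDC, and was not called (limma adjusted p = 0.216). In Tu_AKTNRAS_DDC against Tu_AKTNRAS (1.94% of genes called, 0.511% higher and 1.43% lower), 0 of the 12 were called.

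Of 22 interferon gamma response genes, 19 were tested, and their counts are given beside the same *Ubd* differences. In DDC_only against PBS_only 2 rose and 2 fell, and the list median equalled that of all genes at -0.04. *Cxcl10*, a T cell attractant, read 10.17, 7.37 and 9.34 in DDC_only, against 4.92, 5.17 and 5.47 in PBS_only, and rose by 3.78 ± 0.55 (limma adjusted p = 5.77e-06). *Cxcl9*, a related attractant, differed by -0.26 ± 0.65 and was not called. Only 1 of the 19 was called in Tu_AKTCAT against NonTu_AKTCAT, downwards. In Tu_AKTCAT_CCl4 against NonTu_AKTCAT_CCl4 2 rose and 0 fell, and in NonTu_AKTCAT_DDC against NonTu_AKTCAT 0 rose and 1 fell. In Tu_AKTNRAS against Tu_AKTCAT 5 rose and 1 fell, beside a *Ubd* difference of -1.05. In Tu_AKTNRAS_DDC against Tu_AKTCAT_DDC 3 rose and 5 fell, beside a *Ubd* difference of -2.93. In Tu_AKTNRAS_DDC against Tu_AKTNRAS, where the *Ubd* difference was -1.33, 6 of the 19 fell and none rose, with a list median of -0.83 beside 0.01 over all genes.

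*Cxcl9* read 6.39, 5.76, 6.14 and 7.35 in Tu_AKTNRAS_DDC, against 8.74, 8.72, 10.50 and 11.78 in Tu_AKTNRAS. The groups did not overlap, and *Cxcl9* fell by 3.52 (limma adjusted p = 0.000328). The class II antigen presentation genes *H2-Ab1* and *Cd74* fell by 2.16 and fell by 1.93 (adjusted p = 0.00186 and 0.00184). *Gbp2*, a GTPase of cell-autonomous defence, fell by 2.03 (adjusted p = 0.0105, but 0.0801 without Tu_AKTNRAS replicate 4). Of 7 tested T and NK cell markers 0 were called in that comparison, with a summed intensity of 484 to 583 in Tu_AKTNRAS_DDC, against 467 to 800 in Tu_AKTNRAS, and their median difference was -0.88. Markers of some other cells were lower beside these genes and *Ubd*. Of 8 stellate cell and fibroblast markers 2 fell (list median -0.93), with sums of 4047 to 5650 in Tu_AKTNRAS_DDC, against 7071 to 10958 in Tu_AKTNRAS. Of 7 tested macrophage and Kupffer cell markers 1 fell (list median -0.63), with sums of 1921 to 2855 in Tu_AKTNRAS_DDC, against 3105 to 5075 in Tu_AKTNRAS. Neither pair of sums overlapped. Of 5 tested cholangiocyte markers 0 were called, but their list median was 0.72. Their sums were higher with DDC, at 1055 to 1267 in Tu_AKTNRAS_DDC, against 606 to 883 in Tu_AKTNRAS. Neutrophil marker sums overlapped, at 1063 to 2123 in Tu_AKTNRAS_DDC, against 994 to 2044 in Tu_AKTNRAS. The part of all these cells in the result was not tested.

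Of the cytokines that induce *Ubd*, *Ifng* and *Il6* were detected on 0 arrays. *Ltb*, a lymphotoxin subunit, read 9.20, 8.81 and 9.01 in DDC_only, against 5.43, 6.13 and 6.19 in PBS_only, and rose by 3.09 ± 0.53 (limma adjusted p = 6.06e-05). It rose by 2.56 ± 0.46 in Tu_AKTCAT_CCl4 against NonTu_AKTCAT_CCl4 (adjusted p = 0.000158). *Ifngr1*, a chain of the interferon gamma receptor, rose by 1.73 ± 0.24 in DDC_only against PBS_only (adjusted p = 3.62e-06). In all, 3 of the 9 tested genes of this list rose there, 0 rose and 1 fell in Tu_AKTCAT against NonTu_AKTCAT, and 1 rose under CCl4 in tumours against non-tumoral liver. In NonTu_AKTCAT_DDC against NonTu_AKTCAT 0 rose and 1 fell. In Tu_AKTNRAS against Tu_AKTCAT, where *Ubd* differed by -1.05, 3 rose and 1 fell. There *Ltb* rose by 2.0, *Ifngr1* by 1.31 and *Tnf* by 0.98 (limma adjusted p = 0.000819, 1.18e-05 and 0.00124). *Tnf* was detected on 10 arrays, and its call was lost with scaling on the median of the kept probes (adjusted p = 0.102).

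The Mallory-Denk body list, keratins, their partners and also *Sqstm1*, had 6 tested genes, and 5 rose in DDC_only against PBS_only. *Krt8*, the main type II keratin of hepatocytes, read 14.34, 13.92 and 13.89 in DDC_only, against 11.86, 12.06 and 12.49 in PBS_only, and rose by 1.91 ± 0.29 (limma adjusted p = 9.73e-06). *Krt18*, its partner, rose by 1.67 ± 0.32 (adjusted p = 0.000272). In Tu_AKTCAT against NonTu_AKTCAT 3 of the 6 rose, with the small heat shock gene *Hspb1* at 3.71 ± 0.44 (adjusted p = 4.55e-07) and the crosslinking enzyme *Tgm2* at 1.85 ± 0.22 (adjusted p = 4.1e-07). *Krt8* rose there too, by 1.24 ± 0.27 (adjusted p = 0.00221). In NonTu_AKTCAT_DDC against NonTu_AKTCAT 4 of the 6 rose, and 4 did in Tu_AKTCAT_CCl4 against NonTu_AKTCAT_CCl4. Calls were also made where *Ubd* overlapped. In NonTu_AKTCAT_CCl4 against NonTu_AKTCAT (19.0% of genes called) and in Tu_AKTCAT_DDC against Tu_AKTCAT (13.3%), 2 rose and 0 fell. In NonTu_AKTCAT against PBS_only (15.1%) 0 rose and 1 fell, and in Tu_AKTNRAS against Tu_AKTCAT (37.4%) 2 rose and 2 fell. Where *Ubd* was 1.4 higher, in Tu_AKTCAT_CCl4 against Tu_AKTCAT, 0 were called.

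**Figure D3:**
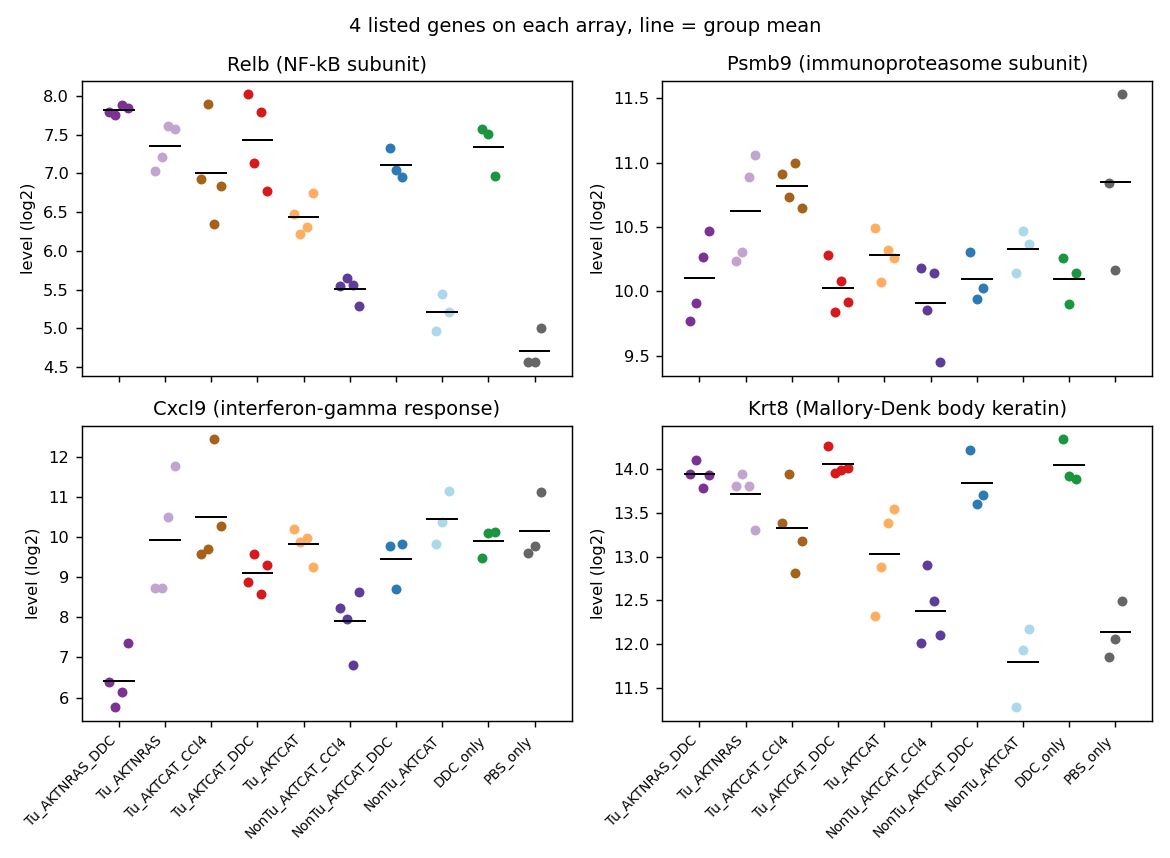
Levels (log2, vertical axes, each on its own scale) of *Relb*, *Psmb9*, *Cxcl9* and *Krt8* on each array by group, with lines at group means. *Relb* and *Krt8* are lowest in the 3 groups that are low in *Ubd*, while *Psmb9* is as high in PBS_only (10.85) as in Tu_AKTCAT_CCl4 (10.82).

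The other lists held ubiquitin relatives, proteasome subunits and mitotic genes. Of 3 constitutive catalytic proteasome subunits, 0 were called in DDC_only against PBS_only and in Tu_AKTCAT against NonTu_AKTCAT. Of 14 tested ubiquitin-like modifiers and ubiquitin genes, 2 rose and 2 fell in DDC_only against PBS_only and 0 were called in Tu_AKTCAT against NonTu_AKTCAT. Of 5 tested spindle checkpoint genes, 2 rose and 1 fell in DDC_only against PBS_only, while in NonTu_AKTCAT against PBS_only (15.1% of genes called, 7.39% higher and 7.66% lower), where *Ubd* overlapped, 3 rose, although with slide as a block 0 genes at all were called there. In Tu_AKTCAT_DDC against NonTu_AKTCAT_DDC (5.77% called, 2.48% higher and 3.29% lower), where *Ubd* overlapped as well, 0 genes of any of these 9 lists were called.

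Markers of other cells moved beside *Ubd* in some comparisons. In DDC_only against PBS_only, 4 of 8 stellate cell and fibroblast markers rose, their summed intensity being 11074 to 13326 in DDC_only, against 6080 to 6794 in PBS_only. There 2 of 5 tested cholangiocyte markers rose as well, with sums of 397 to 819 in DDC_only, against 146 to 284 in PBS_only, and 1 of 7 tested T and NK cell markers did, while *Cd4* and *Cd8a* were detected on 0 of the 36 arrays. Macrophage and Kupffer cell sums were 9654 to 12951, against 6821 to 8873, although 1 of 7 tested markers fell and 0 rose. Hepatocyte sums were 106215 to 116499, against 117148 to 124768, and 1 of 8 markers fell. B cell sums were 90.3 to 107, against 115 to 124, with 0 of 3 tested markers called. In Tu_AKTCAT_CCl4 against NonTu_AKTCAT_CCl4, 4 of 6 tested neutrophil markers fell, with sums of 969 to 9121 in Tu_AKTCAT_CCl4, against 4309 to 39056 in NonTu_AKTCAT_CCl4. There 4 of 7 tested macrophage and Kupffer cell markers and 4 of 7 endothelial markers fell as well, and 3 of 8 hepatocyte markers. In Tu_AKTCAT against NonTu_AKTCAT, 2 of 7 tested macrophage and Kupffer cell markers fell, with sums of 3040 to 6062, against 6587 to 12409. Endothelial sums were 3302 to 8602, against 10101 to 10684, and stellate cell and fibroblast sums 5111 to 7093, against 7257 to 10104. There 2 of 6 tested neutrophil markers and 2 of 8 hepatocyte markers fell as well. In NonTu_AKTCAT_DDC against NonTu_AKTCAT, macrophage and Kupffer cell sums were 4879 to 5961, against 6587 to 12409, and endothelial sums 2348 to 6267, against 10101 to 10684. There 3 of 8 hepatocyte markers and 2 of 6 tested neutrophil markers fell, and 1 of 5 tested cholangiocyte markers rose. The part of these cells in the *Ubd* levels was not tested.

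Across the 36 arrays, the 10 genes whose levels followed *Ubd* most closely by Pearson's r were *Gipc2* (0.94), *Cyp2d9* (0.91), *Acot10* and *Anxa5* (0.90 each), *Haus8*, *Emp2*, *Tmem45b* and *Mtmr11* (0.89 each), and *Tmem43* and *Tubb2b* (0.88 each). The 5 lowest were *Kyat1* (-0.87), *Dct* and *Sult5a1* (-0.82 each), *Ramp1* (-0.81) and *Dbt* (-0.80). The median over the other 10764 genes was -0.01, and 76 of them (0.706%) exceeded 0.8. The arrays fall into 10 groups and r over arrays mixes differences between groups with those within them. Of the 10 highest, 4 were among the 10 highest by group means and 0 by deviations from group means, where their r lay between 0.09 and 0.54. By Spearman's rho 2 of the 10 stayed.

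*Gipc2*, a scaffold protein gene, had the same 3 low groups as *Ubd*. It averaged 9.69 ± 0.68 in DDC_only, against 4.69 ± 0.23 in PBS_only (SD, n = 3 each), and 9.25 ± 0.67 in Tu_AKTCAT (SD, n = 4), against 4.59 ± 0.16 in NonTu_AKTCAT (SD, n = 3). It was detected on 0 arrays of the low groups. In Tu_AKTCAT_CCl4 it averaged 10.16 ± 0.24, against 4.69 ± 0.23 in NonTu_AKTCAT_CCl4 (SD, n = 4 each). *Cyp2d9*, a cytochrome P450, averaged 12.36 ± 0.13 in Tu_AKTNRAS, against 12.02 ± 0.47 in Tu_AKTCAT (SD, n = 4 each), where *Ubd* was lower in Tu_AKTNRAS. *Kyat1*, a kynurenine aminotransferase, averaged 10.20 ± 0.45 in DDC_only, against 11.70 ± 0.59 in PBS_only (SD, n = 3 each).

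**Figure D4:**
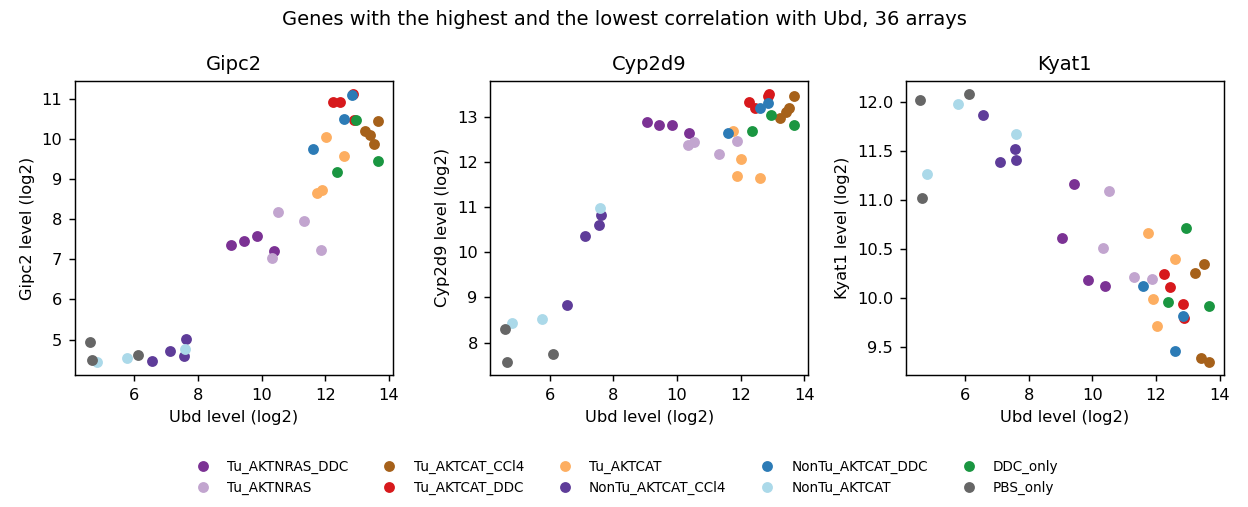
Levels (log2) of *Gipc2*, *Cyp2d9* and *Kyat1* (vertical axes) against that of *Ubd* (horizontal axis) on the 36 arrays, coloured by group. *Gipc2* (r = 0.94) and *Cyp2d9* (r = 0.91) are low where *Ubd* is low, and *Kyat1* (r = -0.87) is high there.

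The nearest measured genes on chromosome 17 were *Olfr91*, *2410137M14Rik* and *Znrd1as* before *Ubd* and *Olfr94*, *H2-M3* and *H2-M2* after *Ubd*, and their r with *Ubd* over the 36 arrays lay between -0.45 and 0.47. *Olfr94*, which begins 705 bases after *Ubd* ends, was detected on 4 arrays and lay between 4.33 and 5.84. *H2-M2*, a class I-like gene with r of 0.47, was called higher in 3 comparisons and lower in 1, by up to 2.47. Its calls were in Tu_AKTCAT_CCl4 against NonTu_AKTCAT_CCl4 and against Tu_AKTCAT, and for AKT-NRAS tumours in Tu_AKTNRAS against Tu_AKTCAT and with DDC against without. *Olfr91* was called in 4 comparisons (1 higher, 3 lower), *2410137M14Rik* in 3 (1 higher, 2 lower) and *H2-M3* in 2 (both lower), while *Znrd1as* and *Olfr94* were called in 0. *Olfr91* and *2410137M14Rik* were detected on only 6 arrays each. They lay between 4.47 and 5.95 and between 4.41 and 6.0, so their calls rest on levels close to the arrays' background.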

How the data were processed

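The probe intensities were deposited by the authors without normalization, beside a detection p-value for each probe, and GenomeStudio is named, version not given, per the submitters' processing notes. Between 24.8% and 30.2% of deposited intensities per array were below 0. Intensities were corrected and quantile normalized with limma 3.58.1 neqc (R 4.3.3, control statistics inferred from detection p-values, offset 16) and put on the log2 scale, where the deposited signals had been linear. Probes with a detection p under 0.05 on at least 3 of 36 arrays were kept, 1 per gene by highest mean, which left 10765 genes. In all, 23978 probes named 1 gene, 0 several and 1719 none. One limma fit held the 10 groups, with 12 comparisons. Fold bounds, written as at least, raise undetected values to each array's lowest detected level. The sample tables' processed intensities, deposited by the authors, served as an alternative after a floor of 16.

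*Ubd*, the gene lists and the tests were chosen with earlier results of these data known. The named genes were all members of the FAT10 conjugation and the immunoproteasome lists, up to 4 called members of other lists per direction, the 10 highest and 5 lowest correlations, and 3 measured neighbours on each side. Alternatives were median scaling, an offset of 50, the processed values, no detection filter, slide or replicate number as a block, and leaving out each array. Scripts were tested on simulated data. Python 3.11.15, numpy 2.4.6, pandas 2.3.3 and matplotlib 3.10.9 were used.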

Additional observations from a re-analysis of the deposited data

Results flagged for a closer look

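The *Ubd* difference that went with DDC had opposite signs in the AKT-NRAS tumours and elsewhere. It was 9.2 larger (log2) in DDC_only against PBS_only than in Tu_AKTNRAS_DDC against Tu_AKTNRAS, 7.62 larger in NonTu_AKTCAT_DDC against NonTu_AKTCAT, and 1.88 larger in Tu_AKTCAT_DDC against Tu_AKTCAT. What drew attention is that every array with DDC lay above its untreated mean in the first groups and every Tu_AKTNRAS_DDC array lay below the Tu_AKTNRAS mean. In both tumour models, though, arrays with and without DDC overlapped, and in AKT-CAT tumours the difference was only 0.55 ± 0.43 (SE of the fit). These differences were not tested, since *Ubd* was chosen for its levels, and Tu_AKTNRAS_DDC and Tu_AKTNRAS lay on a slide of their own.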

How the results depend on the processing

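The *Ubd* differences kept their direction wherever the arrays did not overlap, under every normalization, filter, block and left-out array that was run. Outside the spread between replicates lay 6.86 (log2) for DDC_only against PBS_only with an offset of 50 and 6.66 for Tu_AKTCAT_CCl4 against NonTu_AKTCAT_CCl4 with median scaling. With 1 array left out, *Ubd* lay between 7.54 and 8.37 for DDC_only against PBS_only, between 5.38 and 6.77 for Tu_AKTCAT against NonTu_AKTCAT, between 6.03 and 6.39 for Tu_AKTCAT_CCl4 against NonTu_AKTCAT_CCl4 and between 5.66 and 7.05 for NonTu_AKTCAT_DDC against NonTu_AKTCAT. Between NonTu_AKTCAT and PBS_only it lay between 0.18 and 1.56, and between Tu_AKTCAT_DDC and NonTu_AKTCAT_DDC between -0.11 and 0.51.

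Median scaling was run over all probes and over the kept probes, and this choice was made after results had been seen. Across all genes the median of a comparison lay between -0.35 and 0.5 with it, and it moved the split of higher against lower calls, which was 1111 and 837 for NonTu_AKTCAT_DDC against NonTu_AKTCAT, 4143 and 194 with all probes and 1730 and 1452 with kept probes. For Tu_AKTNRAS against Tu_AKTCAT the split was 2214 and 1817, 4511 and 950 with all probes and 1665 and 4036 with kept probes, and for DDC_only against PBS_only 1194 and 1246, 1214 and 517, and 791 and 2496. For Tu_AKTCAT against NonTu_AKTCAT it was 638 and 567, 1687 and 73, and 550 and 591, and for Tu_AKTCAT_CCl4 against NonTu_AKTCAT_CCl4 844 and 797, 2265 and 261, and 711 and 2502. In the same order, NonTu_AKTCAT against PBS_only had 796 and 825, 133 and 1679, and 337 and 1228. Tu_AKTCAT_DDC against NonTu_AKTCAT_DDC had 267 and 354, 232 and 131, and 224 and 642. Tu_AKTCAT_DDC against Tu_AKTCAT had 797 and 631, 2093 and 220, and 868 and 830. Tu_AKTCAT_CCl4 against Tu_AKTCAT had 550 and 342, 913 and 139, and 392 and 600. NonTu_AKTCAT_CCl4 against NonTu_AKTCAT had 1157 and 884, 1162 and 153, and 871 and 399. Tu_AKTNRAS_DDC against Tu_AKTNRAS had 55 and 154, 55 and 465, and 162 and 168. Tu_AKTNRAS_DDC against Tu_AKTCAT_DDC had 2264 and 1967, 1685 and 1997, and 1824 and 2345. The cause of these changes was not tested.

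The labels do not say whether a shared replicate number marks a shared animal. Same-numbered samples' deviations correlated at -0.291 to 0.346, not over 0.1 in every pair of any comparison, so the numbers were not taken as pairs. In Tu_AKTCAT_CCl4 against NonTu_AKTCAT_CCl4 3 of 4 pairs correlated best with their own number, and in Tu_AKTNRAS_DDC against Tu_AKTNRAS 2 of 4 did, at 0.0728 to 0.321. With the replicate block, *Ubd* differed by 5.89 for Tu_AKTCAT against NonTu_AKTCAT, and 103 of 108 counts of listed genes stayed within 1.5 times. Under slide as a block 2 named genes turned in NonTu_AKTCAT_DDC against NonTu_AKTCAT, *Psmb8* to 0.44 and *Cxcl1* to 0.4, and under median scaling *Sumo2* turned to 0.24, none of them called there. Slide as a block could not be estimated for 4 comparisons, Tu_AKTCAT_CCl4 against Tu_AKTCAT, NonTu_AKTCAT_CCl4 against NonTu_AKTCAT and both of AKT-NRAS against AKT-CAT tumours.

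The number of listed genes called per comparison moved by over 1.5 times as follows, with the reported number in brackets. For DDC_only against PBS_only, kept-probe scaling gave 1 conjugation (2), 2 immunoproteasome (1), 1 constitutive subunit (0) and 9 ubiquitin-like (4). The processed values gave 1 conjugation (2). No filter gave 1 conjugation (2). Median scaling gave 0 immunoproteasome (1) and 2 interferon (4). For NonTu_AKTCAT against PBS_only, median scaling gave 4 immunoproteasome (0), 2 constitutive subunit (1), 6 ubiquitin-like (2), 5 interferon (1) and 2 Mallory-Denk (1). Kept-probe scaling gave 3 immunoproteasome (0), 2 constitutive subunit (1), 5 ubiquitin-like (2) and 4 interferon (1). An offset of 50 gave 1 immunoproteasome (0), 3 interferon (1) and 0 Mallory-Denk (1). Without a filter there were 1 immunoproteasome (0), 0 constitutive subunit (1), 0 interferon (1) and 0 Mallory-Denk (1). The replicate block gave 1 immunoproteasome (0). The slide block gave 0 constitutive subunit (1), 0 ubiquitin-like (2), 0 cytokine (1), 0 interferon (1), 0 NF-kB (3), 0 Mallory-Denk (1) and 0 spindle (3). For Tu_AKTCAT against NonTu_AKTCAT, median scaling gave 2 conjugation (0), 2 immunoproteasome (0), 1 constitutive subunit (0), 2 ubiquitin-like (0), 2 cytokine (1), 0 interferon (1), 6 Mallory-Denk (3) and 0 spindle (1). Kept-probe scaling gave 1 conjugation (0), 2 ubiquitin-like (0), 0 interferon (1) and 0 spindle (1). An offset of 50 gave 1 ubiquitin-like (0) and 0 interferon (1). Leaving out the filter gave 1 ubiquitin-like (0) and 0 interferon (1). The replicate block gave 2 cytokine (1) and 2 interferon (1). The slide block gave 0 interferon (1) and 0 spindle (1). For Tu_AKTCAT_DDC against NonTu_AKTCAT_DDC, kept-probe scaling gave 1 conjugation (0) and 1 constitutive subunit (0). Median scaling gave 1 constitutive subunit (0) and 1 cytokine (0). The replicate block gave 1 constitutive subunit (0). An offset of 50 gave 1 ubiquitin-like (0). For Tu_AKTCAT_CCl4 against NonTu_AKTCAT_CCl4, median scaling gave 5 immunoproteasome (2), 3 constitutive subunit (0), 2 cytokine (1), 5 interferon (2) and 1 spindle (0). Kept-probe scaling gave 5 ubiquitin-like (3) and 4 cytokine (1). An offset of 50 gave 5 ubiquitin-like (3). For Tu_AKTCAT_DDC against Tu_AKTCAT, median scaling gave 1 constitutive subunit (0), 1 cytokine (0) and 2 spindle (1). Kept-probe scaling gave 1 constitutive subunit (0) and 1 Mallory-Denk (2). The slide block gave 0 ubiquitin-like (2), 1 interferon (2), 0 NF-kB (3), 1 Mallory-Denk (2) and 0 spindle (1). No filter gave 1 interferon (2) and 1 Mallory-Denk (2). The processed values gave 1 Mallory-Denk (2). For Tu_AKTCAT_CCl4 against Tu_AKTCAT, median scaling gave 0 conjugation (1) and 5 NF-kB (3). Kept-probe scaling gave 2 conjugation (1), 0 immunoproteasome (1) and 1 interferon (2). An offset of 50 gave 1 interferon (2). Without a filter there were 1 interferon (2). The processed values gave 1 NF-kB (3). For NonTu_AKTCAT_DDC against NonTu_AKTCAT, median scaling gave 2 conjugation (0), 2 constitutive subunit (0), 7 ubiquitin-like (3), 3 cytokine (1), 4 interferon (1) and 1 spindle (0). Kept-probe scaling gave 2 conjugation (0) and 3 cytokine (1). Leaving out the filter gave 1 immunoproteasome (2). The slide block gave 0 immunoproteasome (2), 0 ubiquitin-like (3), 0 interferon (1) and 2 NF-kB (4). For NonTu_AKTCAT_CCl4 against NonTu_AKTCAT, median scaling gave 3 ubiquitin-like (5), 1 interferon (2), 0 NF-kB (3) and 4 Mallory-Denk (2). Kept-probe scaling gave 3 ubiquitin-like (5) and 0 NF-kB (3). For Tu_AKTNRAS against Tu_AKTCAT, median scaling gave 0 conjugation (2), 2 immunoproteasome (1), 3 constitutive subunit (0), 2 Mallory-Denk (4) and 4 spindle (0). Kept-probe scaling gave 2 immunoproteasome (1). An offset of 50 gave 1 constitutive subunit (0). No filter gave 1 constitutive subunit (0). For Tu_AKTNRAS_DDC against Tu_AKTNRAS, median scaling gave 1 ubiquitin-like (0), 1 NF-kB (0) and 1 Mallory-Denk (0). For Tu_AKTNRAS_DDC against Tu_AKTCAT_DDC, median scaling gave 0 spindle (1). Kept-probe scaling gave 0 spindle (1). The processed values gave 0 spindle (1). Without a filter there were 0 spindle (1). The replicate block gave 0 spindle (1).

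With 1 array left out, the number of genes called ran as follows where it moved by over 1.5 times. DDC_only against PBS_only had 1 to 2 conjugation, 0 to 1 immunoproteasome, 2 to 4 ubiquitin-like and 1 to 5 interferon genes. NonTu_AKTCAT against PBS_only had 0 to 1 immunoproteasome, 0 to 1 constitutive subunit, 1 to 3 ubiquitin-like, 1 to 2 cytokine, 0 to 2 interferon and 0 to 1 Mallory-Denk genes. Tu_AKTCAT against NonTu_AKTCAT had 0 to 1 conjugation, 0 to 1 ubiquitin-like, 1 to 2 cytokine, 0 to 1 interferon, 3 to 5 Mallory-Denk and 0 to 2 spindle genes. Tu_AKTCAT_DDC against NonTu_AKTCAT_DDC had 0 to 1 conjugation, 0 to 1 immunoproteasome, 0 to 2 constitutive subunit, 0 to 1 ubiquitin-like, 0 to 1 cytokine and 0 to 1 Mallory-Denk genes. Tu_AKTCAT_CCl4 against NonTu_AKTCAT_CCl4 had 1 to 5 ubiquitin-like, 1 to 2 cytokine, 2 to 4 interferon and 0 to 1 spindle genes. Tu_AKTCAT_DDC against Tu_AKTCAT had 0 to 1 conjugation, 0 to 1 constitutive subunit, 1 to 2 ubiquitin-like, 0 to 1 cytokine, 1 to 2 interferon, 0 to 3 NF-kB, 1 to 2 Mallory-Denk and 0 to 2 spindle genes. Tu_AKTCAT_CCl4 against Tu_AKTCAT had 0 to 2 conjugation, 0 to 1 immunoproteasome, 1 to 4 ubiquitin-like, 0 to 3 cytokine, 1 to 2 interferon and 1 to 4 NF-kB genes. NonTu_AKTCAT_DDC against NonTu_AKTCAT had 0 to 1 conjugation, 1 to 2 immunoproteasome, 1 to 3 ubiquitin-like, 1 to 2 cytokine and 1 to 2 interferon genes. NonTu_AKTCAT_CCl4 against NonTu_AKTCAT had 3 to 6 ubiquitin-like and 1 to 2 Mallory-Denk genes. Tu_AKTNRAS against Tu_AKTCAT had 0 to 2 constitutive subunit and 2 to 4 Mallory-Denk genes. Tu_AKTNRAS_DDC against Tu_AKTCAT_DDC had 0 to 1 constitutive subunit and 0 to 1 spindle genes.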
